A study of Mus musculus with 8 samples.

Results

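The chemokine receptors Cxcr6, Cxcr3, Cxcr4, Ccr1, Ccr2, Ccr4, Ccr6 and Ccr8 were followed in CD4+ T cells that had been sorted from knee joints, after enzymatic digestion, of 16-week-old male mice. They are 8 of the 24421 gene symbols counted, picked by name with earlier results of these data known, so their genotype differences are given as a description and without p-values. Every mouse had antigen-induced arthritis, a joint inflammation raised by an antigen to which the animal was immunised. The 2 genotypes, with 4 libraries each, were wild type and Slc7a5 knockout. Slc7a5 encodes LAT1, a transporter of large neutral amino acids that pairs with the heavy chain Slc3a2. The labels name neither the deleted part of the gene nor the promoter or cell type in which a deletion was made, and they do not tie a library to 1 animal. The spread between libraries may therefore be technical in part. Values per library are listed in the order of replicates 1 to 4.

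Chemokine receptors are G protein-coupled receptors of the cell surface. Each senses a small set of chemokines and steers the cell up their gradient through inhibitory G proteins. Effector T cells of inflamed tissue carry receptors for chemokines made there, and helper lineages differ in the set they use: CXCR3 is typical of Th1 cells, CCR6 of Th17 cells, CCR4 and CCR8 of Th2 and regulatory cells, while CCR1 and CCR2 are also carried by monocytes.

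The libraries held 21873678 to 36436923 counts in wild type and 18837650 to 25853856 in knockout, with 7957 to 10139 and 5221 to 9358 genes detected. Knockout replicate 4 had the fewest genes and stood apart, with Spearman correlations of 0.489 to 0.544 with the other libraries across tested genes, against 0.578 to 0.826 for pairs without it. Slc7a5 was counted 385, 194, 410 and 0 times in the wild-type libraries and 0 times in each knockout library, so wild-type replicate 4 is not checked by it. T cell markers summed to 10338 to 14166 CPM (counts scaled to the library size after TMM) in wild type and to 8059 to 10693 in knockout. Of 14 such genes tested, 12 had lower and 2 higher estimates in knockout (median log2 fold change -0.42, against -0.12 for all genes). Of these, 5 (Cd3e, Cd247, Cd5, Zap70 and Lat) lay lower in every knockout library than in any wild-type library. Their log2 fold changes ran from -0.37 for Lat to -1.23 for Zap70. Of all genes tested, 4.62% lay lower in this way. None of the 14 passed the test across all genes given below. Cd4 itself, the marker of the sort, was at 344 to 570 CPM in 7 libraries but at 1.78 CPM (34 counts) in knockout replicate 4. Markers of monocytes, macrophages and dendritic cells (20 genes, 18 with a count) summed to 1330 to 3163 CPM in wild type and to 8839, 10112, 2035 and 11265 CPM in the knockout libraries, most of it from Cd74, H2-Ab1 and H2-Aa of MHC class II antigen presentation. Other genes of that list went the other way: Lyz2 ranged from 22.0 to 25.7 CPM in wild type, against 0, 0, 25.5 and 0.37 CPM across the knockout, and Cd14 at 9.01 to 40.1 against 0, 0, 22.2 and 0.21 CPM. The defining macrophage markers Adgre1 and Fcgr1 had 0 counts in all 8 libraries. Csf1r was at 0 in every wild-type library and reached 44.3 CPM in knockout replicate 2. B and plasma cell, neutrophil, gamma-delta T cell and mast cell markers summed to at most 91.3 CPM in any library. Only 2 of the 5 gamma-delta genes listed, Sox13 and Blk, were among the symbols counted, so that sum cannot show how many such cells there were. Markers of CD8 T and natural killer cells summed to 132 to 291 CPM in wild type against 45.8 to 153 in knockout. Klrk1 made up most of this except in knockout replicate 4, where it was at 0 and Cd8b1 at 123 CPM. Cd8b1 was at most 20.3 CPM in the other libraries, and knockout replicate 4 is also the library with Cd4 at 1.78 CPM. Endothelial markers summed to 57.4 to 158 against 0 to 124 CPM, mostly Pecam1. Cdh5, Kdr, Vwf and Tek were each at most 7.48 CPM in any library. The fibroblast list (103 to 157 against 39.3 to 129 CPM) was mostly Thy1, which T cells also express, except in wild-type replicate 4. There Thy1 was at 61.9, Dcn at 64.5 and Prg4 at 25.4 CPM. Lum was at 15.4 CPM in knockout replicate 3 and at 0 elsewhere. Col1a2 and Pdgfra were at 0 and Col1a1 and Pdpn under 1 CPM in every library. The part of these differences in the results below was not tested.

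The upstream sequences of the 4 receptors that lead in abundance are shown because 2 of them, Cxcr6 and Cxcr3, had lower means in knockout and the other two, Ccr2 and Ccr8, had not. Each runs 5′ to 3′ on the gene's strand from 250 bases before to 50 bases after the RefSeq start in GRCm38.p6, and capitals mark 3 short motifs searched on both strands: GTGTGA, the core bound by T-box factors, TGTGGT, the core bound by RUNX factors, and AGATAA, bound by GATA factors. Other motifs had been looked at before these were chosen.
Cxcr6, chr9:123806227-123806526, plus strand: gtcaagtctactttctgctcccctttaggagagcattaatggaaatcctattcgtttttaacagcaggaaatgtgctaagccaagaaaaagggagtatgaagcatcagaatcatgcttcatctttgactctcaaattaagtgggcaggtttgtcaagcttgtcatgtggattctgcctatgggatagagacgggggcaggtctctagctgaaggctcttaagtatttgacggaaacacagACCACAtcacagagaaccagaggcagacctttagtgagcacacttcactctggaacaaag
Cxcr3, chrX:101734098-101734397, minus strand: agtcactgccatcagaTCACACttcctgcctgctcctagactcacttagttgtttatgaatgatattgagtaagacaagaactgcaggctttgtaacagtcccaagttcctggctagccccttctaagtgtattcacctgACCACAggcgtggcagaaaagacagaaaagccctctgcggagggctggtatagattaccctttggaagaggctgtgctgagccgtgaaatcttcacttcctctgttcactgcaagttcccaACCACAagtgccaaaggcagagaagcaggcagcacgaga
Ccr2, chr9:124101933-124102232, plus strand: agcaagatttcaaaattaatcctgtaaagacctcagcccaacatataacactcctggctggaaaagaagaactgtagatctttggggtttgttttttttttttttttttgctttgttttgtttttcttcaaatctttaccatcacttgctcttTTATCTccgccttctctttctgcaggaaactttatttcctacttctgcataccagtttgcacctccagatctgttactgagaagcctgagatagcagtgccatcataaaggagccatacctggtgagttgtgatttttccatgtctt
Ccr8, chr9:120091883-120092182, plus strand: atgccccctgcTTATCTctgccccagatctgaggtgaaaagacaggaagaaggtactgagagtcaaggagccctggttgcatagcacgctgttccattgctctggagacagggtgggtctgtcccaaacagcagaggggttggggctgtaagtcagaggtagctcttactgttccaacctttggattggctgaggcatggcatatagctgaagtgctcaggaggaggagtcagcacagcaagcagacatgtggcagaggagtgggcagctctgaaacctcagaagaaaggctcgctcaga

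All 8 receptors were found in the promoter table, with 9 promoters in all. The RUNX letters (printed as ACCACA where they lie on the other strand) began 10 bases before the start of Cxcr6. In Cxcr3 they lay both upstream and downstream of the start. They occurred in 4 of the 9 promoters (Cxcr6, Cxcr3, Ccr1 and Ccr6), against 16.8% of 32851 mouse promoters. The T-box letters were found in 2 of the 9 (Cxcr3 and Ccr1; 14.5% of all promoters) and the GATA letters in 3 of the 9 (Ccr2, Ccr8 and Ccr6; 11.2%). None of these motifs overlapped another in the windows printed. A match is a description of the letters and not a bound site. Because the motifs and receptors were picked as said above, no excess over all promoters is read from these counts.

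Cxcr6, the receptor for Cxcl16 on effector and tissue-resident T cells, had the highest mean CPM of the 8 in wild type. It was at 1451, 1920, 1069 and 2106 CPM across the wild-type libraries and at 897, 452, 991 and 972 CPM across those of the knockout. No knockout library reached the lowest wild-type library, with the closest pair at 991 and 1069 CPM. The means were 1637 ± 468 and 828 ± 254 CPM (SD, n = 4 each), 1.98-fold lower in knockout (log2 fold change -0.98 with an SE of 0.29). In all, 4.62% of the 8489 genes tested lay lower in knockout without overlap in this way and 1.52% lay higher (3.91% and 3.05% of genes with a mean of at least 50 CPM), and Cxcr6 was the only one of the 8 receptors to do either. In bulk RNA a smaller share of Cxcr6-bearing cells and less Cxcr6 RNA per cell cannot be told apart. Without knockout replicate 4 the log2 fold change was -1.08, and it kept its sign in all 19 alternatives (-1.14 to -0.68).

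Cxcr3, the receptor for the interferon-induced chemokines Cxcl9 and Cxcl10, was at 240, 210, 93.0 and 188 CPM across the wild-type libraries and at 99.998, 97.4, 83.0 and 45.2 CPM across those of the knockout. The genotypes overlapped through wild-type replicate 3, which lay below knockout replicates 1 and 2. That same library was also the lowest wild-type library for Cxcr6. The means were 183 ± 63.4 and 81.4 ± 25.3 CPM, 2.24-fold lower in the knockout (log2 fold change of -1.17 with an SE of 0.49). The estimate was -0.98 without knockout replicate 4 and -0.57 with an offset for the GC content of transcripts, which moved the median of all genes from -0.12 to 0.17. The Cxcr3 transcript has 54.2% GC, at the percentile 78.5 of tested genes.

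The 2 genotypes were compared across all tested genes by edgeR's quasi-likelihood test, and 0 of the 8 receptors passed at an adjusted p under 0.05, where 0.00% of 8489 genes did. At an unadjusted p under 0.05 were 326 genes in all (3.84%; 1.97% with lower and 1.87% with higher estimates). DESeq2 called 387 of 10659 genes (3.63%) and limma voom 4 of 8489 (0.0471%), none of them among the receptors. Since the receptors were chosen with these differences known, nothing is read from their count.

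**Figure D1:**
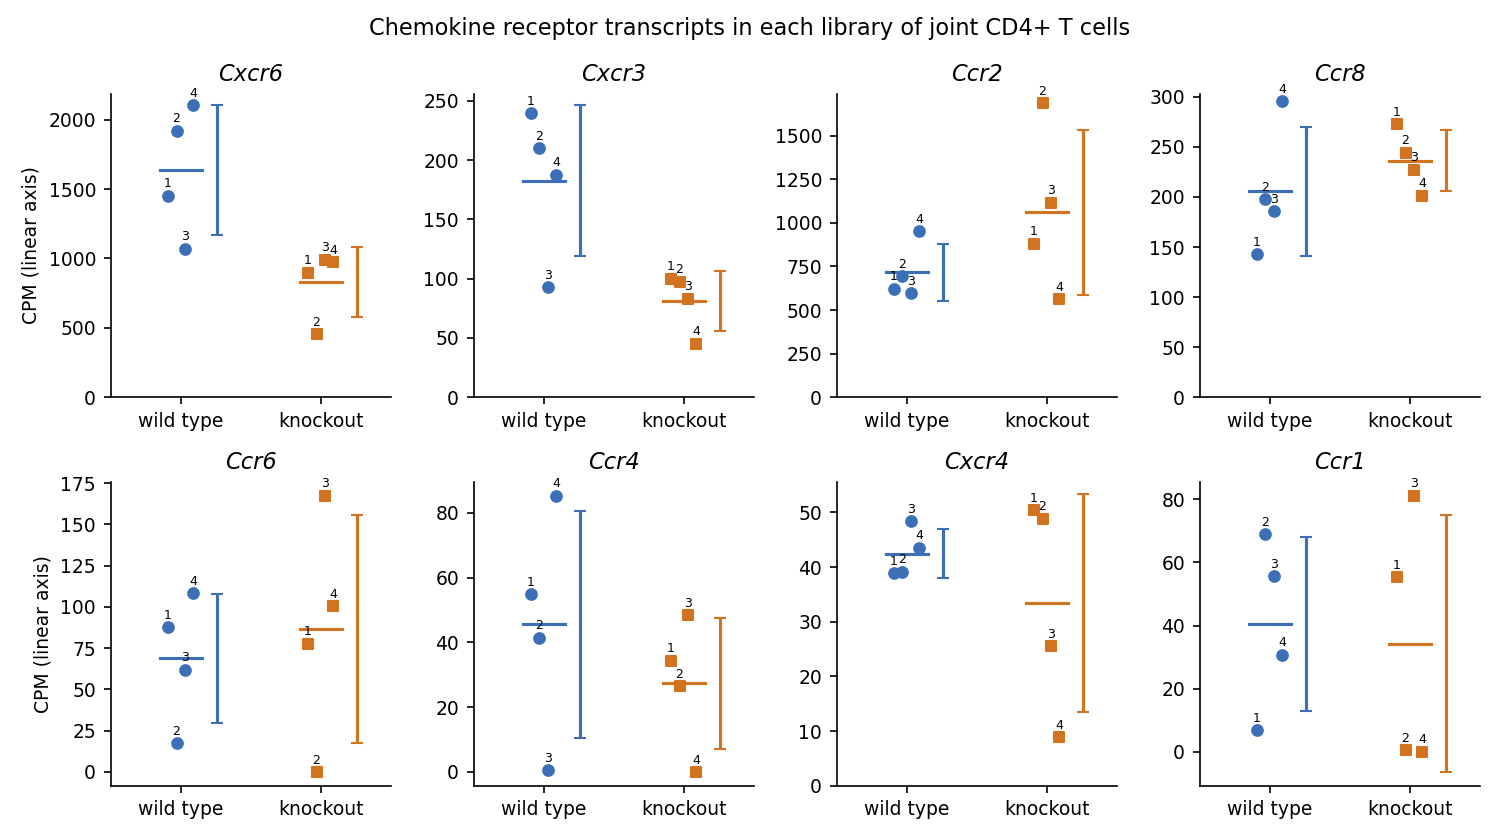
CPM of the 8 receptors in each library, on linear axes. Points are libraries numbered by replicate, short lines are means and bars to the right are mean ± SD (n = 4 per genotype). Only for Cxcr6 do all knockout libraries, at 452 to 991 CPM, lie below all wild-type libraries, at 1069 to 2106 CPM.

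Ccr2, the receptor for Ccl2 and related monocyte-attracting chemokines on effector and memory T cells, had a higher mean in knockout. It was at 623, 695, 595 and 952 CPM across the wild-type libraries and at 881, 1686, 1117 and 560 CPM across those of the knockout. Knockout replicates 2 and 3 lay above all wild-type libraries, while replicate 4 lay below them, so the genotypes overlapped. The means were 716 ± 163 and 1061 ± 475 CPM (log2 fold change 0.57, SE 0.31, n = 4 each). The estimate was 0.23 without knockout replicate 2, 0.76 without knockout replicate 4 and 0.93 without replicate 4 of both genotypes. Ccr2 is also a monocyte gene. The myeloid marker sums given above, mostly MHC class II genes, were high in knockout replicates 1, 2 and 4 and low in replicate 3, whereas Ccr2 was highest in replicates 2 and 3. Their part in the Ccr2 values was not tested.

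Ccr8, the receptor for Ccl1 on Th2 and tissue regulatory T cells, was the steadiest of the more abundant receptors. It was at 143, 198, 186 and 296 CPM across the wild-type libraries and at 273, 244, 227 and 201 CPM across those of the knockout. The knockout libraries lay within the wild-type range. The means were 205 ± 64.6 and 236 ± 30.0 CPM (log2 fold change 0.20, SE 0.33, n = 4 each). Over the 8 libraries the coefficient of variation was 22.4%, lower than for all but 5.95% of the 1411 tested genes within 2-fold of its mean. The estimate was 0.26 without knockout replicate 4, 0.06 without wild-type replicate 1, 0.43 without wild-type replicate 4 and 0.82 with the GC offset.

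Cxcr4, the receptor for Cxcl12 that is carried by most lymphocytes, was narrow in wild type at 38.9, 39.2, 48.4 and 43.5 CPM. In the knockout libraries it was at 50.4, 48.8, 25.5 and 8.83 CPM. Knockout replicates 1 and 2 lay above every wild-type library and replicates 3 and 4 below every one. The means were 42.5 ± 4.47 and 33.4 ± 20.0 CPM (log2 fold change -0.35, SE 1.21, n = 4 each), and without knockout replicate 4 the estimate was -0.05. Its coefficient of variation over the 8 libraries, 37.5%, stood at the percentile 2.25 of the 3512 genes within 2-fold of its mean.

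Ccr6, the receptor for Ccl20 on Th17 cells, was at 87.9, 17.5, 61.9 and 108 CPM across the wild-type libraries. In the knockout libraries it was at 77.7, 0, 167 and 101 CPM. Knockout therefore held both the highest library of the 8 and the only one with 0 counts. The means were 68.9 ± 39.2 and 86.4 ± 69.0 CPM (log2 fold change 0.33, SE 1.41, n = 4 each), at 0.23 without knockout replicate 4, and the sign turned without knockout replicate 3 (-0.21) and without wild-type replicate 2 (-0.02).

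Ccr4, the receptor for Ccl17 and Ccl22, was at 54.8, 41.5, 0.52 and 85.2 CPM across the wild-type libraries and at 34.3, 26.6, 48.4 and 0 CPM across those of the knockout. Each genotype had 1 library at or near 0, wild-type replicate 3 with 17 counts and knockout replicate 4 with 0, so no order of the genotypes can be read. The means were 45.5 ± 35.1 and 27.3 ± 20.3 CPM (log2 fold change -0.74, SE 1.83, n = 4 each). The estimate was -0.33 without knockout replicate 4, -0.24 without wild-type replicate 4 and 0.16 without both.

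Ccr1, a receptor for Ccl3 and Ccl5 on myeloid cells and some effector T cells, was present or nearly absent by library. It was at 6.89, 69.0, 55.7 and 30.8 CPM across the wild-type libraries and at 55.3, 0.50, 81.1 and 0.10 CPM across those of the knockout. Knockout replicates 2 and 4 held 9 and 2 counts, and in both of them Lyz2 and Cd14 were also under 1 CPM while the MHC class II genes were high. The same held in knockout replicate 1, where Ccr1 was at 55.3 CPM. Ms4a6c, of the same marker list, was at 101 and 302 CPM in knockout replicates 2 and 4. The part of these genes in the Ccr1 values was not tested. The means were 40.6 ± 27.5 and 34.3 ± 40.6 CPM (log2 fold change -0.24, SE 1.75, n = 4 each). The estimate was 0.14 without knockout replicate 2 and 0.16 without knockout replicate 4. Of the 8489 genes tested, 3786 (44.6%) were seen in all 8 libraries.

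**Figure D2:**
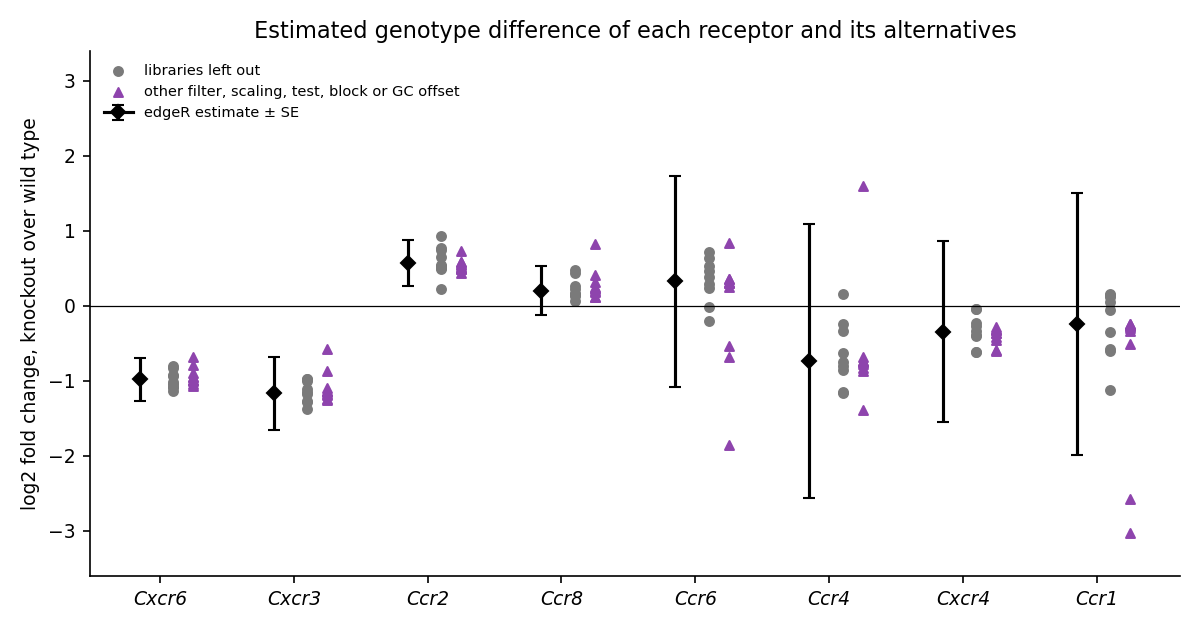
Log2 fold change of each receptor, knockout over wild type. Diamonds with bars are the edgeR estimate ± SE from 4 libraries per genotype, grey circles leave out libraries and triangles change the filter, the scaling, the test, the block or the GC offset. Cxcr6 stays between -1.14 and -0.68 and Ccr2 between 0.23 and 0.93, while Ccr1, Ccr4 and Ccr6 fall on both sides of 0.

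Set per kilobase of exon, so that genes can be compared, Cxcr6 had the highest mean in both genotypes, a lead that in knockout did not hold per coding kilobase. Its level was 848 ± 242 CPM per kilobase in wild type and 429 ± 132 CPM per kilobase in knockout, above Ccr8 in every library and above Ccr2 in all but knockout replicate 2 (234 against 249 CPM per kilobase). In wild type the order of means after Cxcr6 was Ccr8 (175 ± 54.9), Ccr2 (106 ± 24.05), Cxcr3 (105 ± 36.6), Ccr6 (29.7 ± 16.9), Cxcr4 (23.5 ± 2.47), Ccr4 (14.7 ± 11.4) and Ccr1 (14.3 ± 9.71 CPM per kilobase, n = 4). Only the steps from Cxcr6 to Ccr8 and from Cxcr3 to Ccr6 separated all 4 wild-type libraries; the other neighbours overlapped. In knockout the separate steps were those from Cxcr6 to Ccr8 and from Ccr2 to Cxcr3. Cxcr3 stood beside Ccr2 in wild type, whereas in knockout it was at 47.0 ± 14.6 CPM per kilobase against 157 ± 70.3 for Ccr2. The place of Ccr2 depends on the length used, since its annotated exons are the longest of the 8 at 6760 bases. With the coding length in place of exon length Ccr2 came before Ccr8 in both genotypes, and in knockout it also came before Cxcr6, at 948 ± 424 against 771 ± 236 CPM per coding kilobase, with each of them higher in 2 of 4 libraries. Of 28 pairs 26 kept their order in wild type and 24 in knockout.

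**Figure D3:**
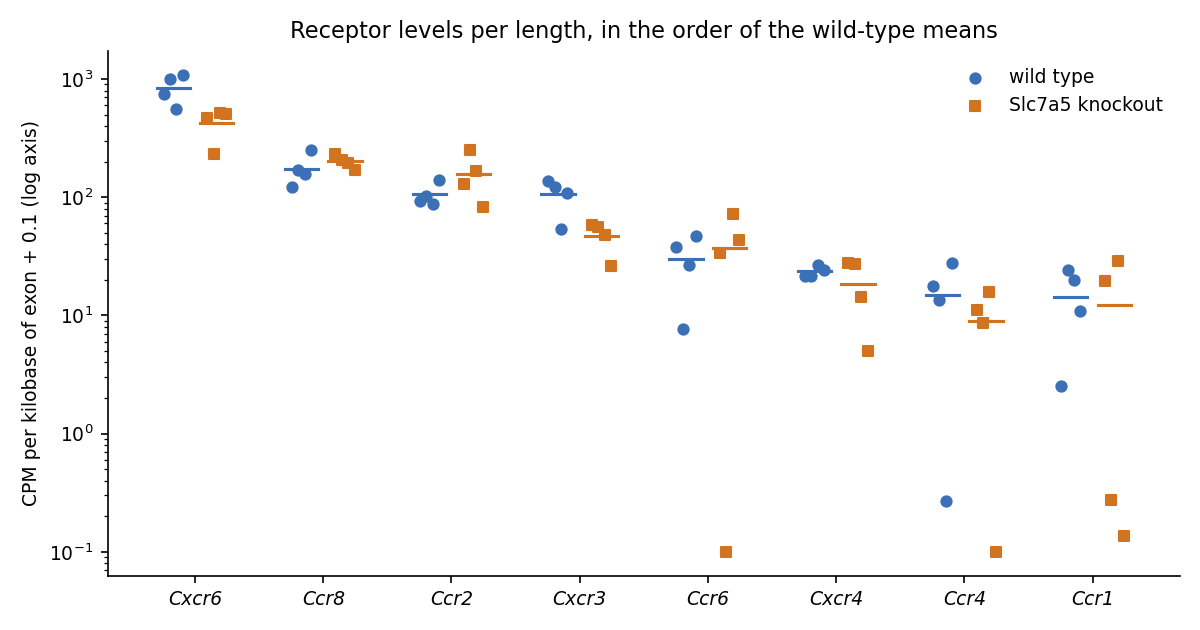
CPM per kilobase of exon plus 0.1, on a log axis, for each receptor in the order of the wild-type means. Points are libraries and lines are means (n = 4 per genotype). Cxcr6, at 848 in wild type and 429 in knockout on average, is above all other receptors in 7 of 8 libraries, the exception being knockout replicate 2, where Ccr2 is at 249 and Cxcr6 at 234, and Ccr6, Ccr4 and Ccr1 each have libraries at or near 0.

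The make-up of the receptor set was also described. Of the summed level per kilobase of the 8, Cxcr6 made up 63.5, 68.4, 59.7 and 64.1% in wild-type replicates 1 to 4 and 47.6, 29.9, 48.9 and 60.5% in knockout replicates 1 to 4. Knockout replicate 4 thus lay within the wild-type range. Ccr8 made up 10.3 to 17.04% in wild type and 18.4 to 26.5% in knockout, and Ccr2 7.07 to 9.51% and 9.97 to 31.8%, without overlap for either. Per coding kilobase the Ccr8 shares overlapped, at 5.54 to 9.03% and 8.56 to 11.9%, while those of Ccr2 did not, at 21.1 to 27.4% and 28.8 to 65.03%. Shares are bound to each other, so a lower Cxcr6 by itself raises those of the others.

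Ratios within a library do not depend on how libraries are scaled, and the gene length used sets their size but not their comparison between genotypes. The ratio of Cxcr6 to Ccr2, per kilobase, was 8.15, 9.68, 6.29 and 7.74 in wild-type replicates 1 to 4 and 3.57, 0.94, 3.11 and 6.07 in knockout replicates 1 to 4. Cxcr6 to Ccr8 was 6.18, 5.90, 3.51 and 4.33 in wild type and 2.002, 1.13, 2.65 and 2.94 in knockout. Both ratios were lower in every knockout library than in any wild-type library. The same held for Cxcr3, which was 0.610 to 1.501 times Ccr2 in wild type and 0.225 to 0.443 times in knockout, and 0.340 to 1.14 times and 0.152 to 0.270 times Ccr8. The ratio of Cxcr6 to Cxcr3 overlapped, at 5.43 to 10.3 in wild type and 4.16 to 19.3 in knockout. Cxcr6 to Cxcr4 overlapped as well, at 20.7 to 45.9 in wild type and 8.67 to 103 in knockout. So did Ccr2 to Ccr8, at 0.558 to 0.759 and 0.484 to 1.20. The 4 separated ratios set receptors seen to be lower over receptors seen not to be. That choice favours separation, and the share of other gene pairs that separate was not computed. These ratios rest on the same counts as the differences above and were not tested.

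**Figure D4:**
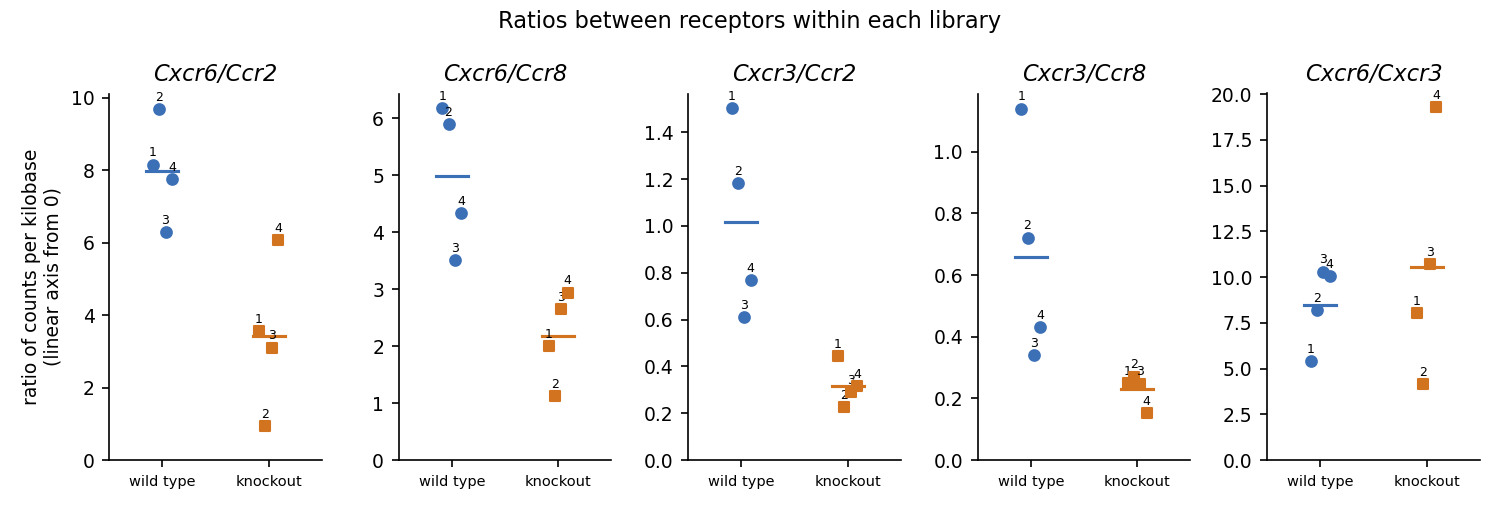
Ratios of counts per kilobase of exon between receptors within each library, on linear axes from 0. Points are libraries numbered by replicate and lines are means. The 4 ratios of Cxcr6 or Cxcr3 to Ccr2 or Ccr8 are lower in every knockout library, while Cxcr6 to Cxcr3, at 5.43 to 10.3 and 4.16 to 19.3, overlaps.

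Several of the receptor genes are neighbours. Cxcr6 (GRCm38 chromosome 9, 123806475 to 123811760, 2 exons), Ccr1 (123962124 to 123968692) and Ccr2 (124101950 to 124113557) lie within one cluster with Ccr9, Xcr1, Ccr1l1 and Ccr3. Ccr4 (114490316 to 114504916) and Ccr8 (120092114 to 120094906) lie farther away on the same chromosome, Cxcr4 on chromosome 1 (128588199 to 128592293), Ccr6 on chromosome 17 (8236043 to 8257141) and Cxcr3 on the X chromosome (101731535 to 101734269). Within the cluster Cxcr6 and Ccr2, whose starts are 295 kb apart, differed in the sign of their estimates, and the genes between them were far lower. Cxcr6 lies inside Fyco1 on the other strand. The 2 genes share 0 exonic bases, and Fyco1 averaged 37.0 ± 17.6 CPM in the wild type against 76.7 ± 97.0 CPM in the knockout, reaching 216 CPM in knockout replicate 4. The strand setting was not stated, so reads of unspliced Fyco1 RNA over Cxcr6 exons cannot be told apart from Cxcr6 reads. Coding sequences of Ccr1 and Ccr3 were 67.6% identical. How reads matching both genes were counted is not stated.

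**Figure D5:**
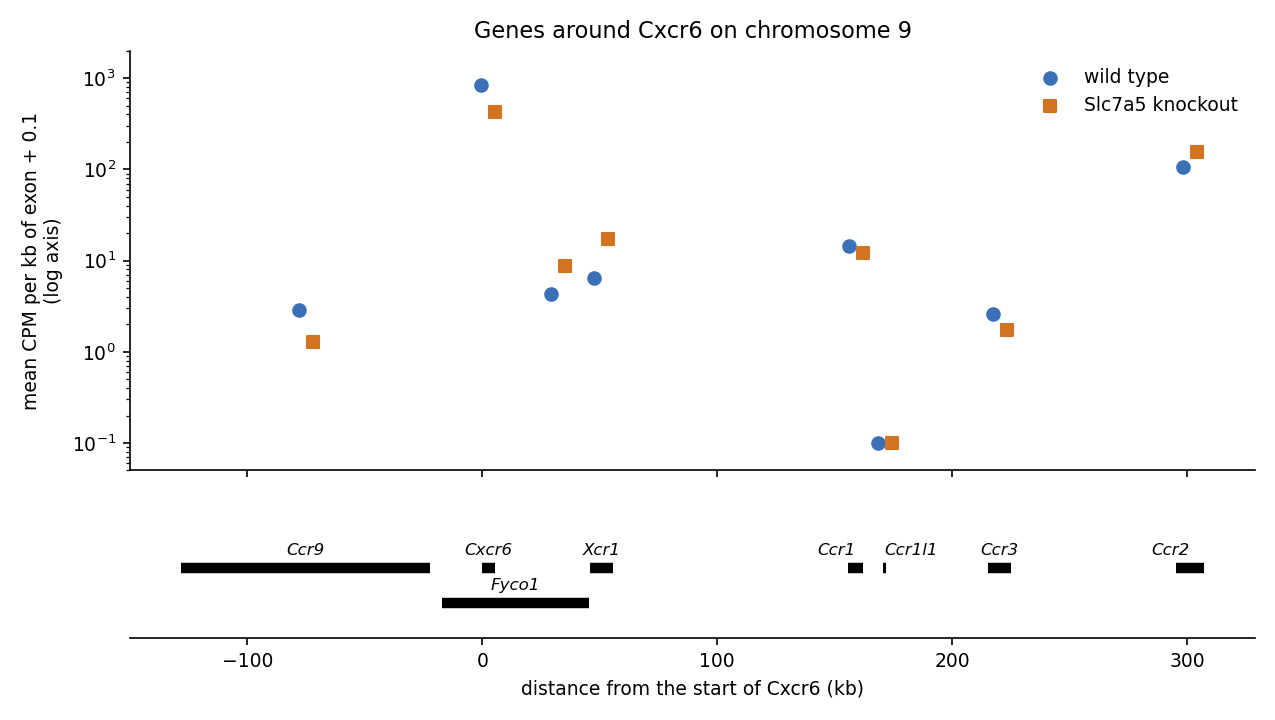
Mean CPM per kilobase of exon plus 0.1, on a log axis, for 8 genes around Cxcr6 on chromosome 9, Cxcr6 included, above a map of the genes to scale by distance from the Cxcr6 start in kb. Circles are wild type and squares knockout (4 libraries each), and the Fyco1 points are shifted to the right for clarity. Cxcr6 and Ccr2 stand out, with Cxcr6 lower and Ccr2 higher in knockout on average.

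Among 17 other chemokine receptors 9 had a count and 6 were tested, none of which passed in edgeR. Cxcr1, Cxcr2, Ccr10, Ackr1, Ackr2, Ackr3, Ackr4 and Ccr1l1 had 0 counts in all libraries. Ccr7, the receptor that takes T cells into lymph nodes, was at 37.2, 101, 131 and 0 CPM across the wild-type libraries and at 28.3, 47.9, 82.0 and 472 CPM across those of the knockout, so its higher knockout mean is carried by 1 library: the estimate was 1.22 with replicate 4 and -0.37 when that was left out. Xcr1, a receptor of cross-presenting dendritic cells, was highest in knockout replicates 2 and 4, at 101 and 179 CPM, and Ccrl2, an atypical receptor, in knockout replicate 4, at 196 CPM. Knockout replicate 4 also had Cd4 at 1.78 CPM and the highest sum of monocyte, macrophage and dendritic cell markers, 11265 CPM. Whether its Ccr7 came from T cells or other cells was not tested. The median log2 fold change of the 6 was 0.47 (-0.01 without knockout replicate 4), beside -0.30 for the 8 receptors (0.06 without it) and -0.12 for all genes tested (-0.08).

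Chemokines that bind the 8 receptors were mostly scarce in the sorted cells, with Ccl4, Ccl5, Ccl1 and Ccl3 the highest on average. Single libraries held others: Ccl20 was at 62.0 CPM in wild-type replicate 4. Ccl17 and Ccl22, at 0 in every wild-type library, were at 49.3 and 54.6 CPM in knockout replicate 4. Cxcl16, the ligand of Cxcr6, had counts in 4 of 8 libraries, and its highest values were 56.1 and 82.6 CPM in knockout replicates 2 and 4. Ccl4 was at 143 ± 64.5 and 46.5 ± 32.2 CPM, Ccl5 at 112 ± 37.9 and 37.0 ± 28.2 CPM and Ccl3 at 38.5 ± 19.6 and 6.25 ± 7.71 CPM (n = 4 each). These 3 of the 9 tested ligands lay lower in every knockout library than in any wild-type library, where 4.62% of all genes tested did. None of the 9 passed in edgeR, and their median log2 fold change was -0.20 but -1.98 without knockout replicate 2 and -2.40 by limma voom. Ccl1, the ligand of Ccr8, was at 62.8 ± 19.5 and 54.8 ± 10.3 CPM.

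The machinery that carries the receptor signal was well expressed. Of 24 tested genes for G proteins and downstream signalling, 15 had lower and 9 higher estimates (median log2 fold change -0.34, or 0.03 with the GC offset), and 0 passed in edgeR. The G protein subunit Gnb1 was at 2492 ± 344 and 2817 ± 1223 CPM, and the small GTPases of cell movement Rac2 at 1472 ± 352 and 1030 ± 493 CPM, Cdc42 at 927 ± 330 and 1005 ± 189 CPM and Rap1b at 662 ± 182 and 1008 ± 634 CPM. Chosen after their values were seen, Ptk2b and Pik3r5 lay lower in every knockout library and Plcb2 higher. Of all genes tested, 4.62% lay lower in this way and 1.52% higher. Ptk2b, a kinase of adhesion and migration signalling, was at 81.7 ± 36.01 and 6.29 ± 8.53 CPM.

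Genes that end receptor signalling, the receptor kinases, arrestins and RGS proteins, had 8 lower and 3 higher estimates of 11 tested (median log2 fold change -0.67, with -0.20 under the GC offset, -1.30 without knockout replicate 1 and -2.33 by limma voom), with 0 passing in edgeR. Rgs1, which is abundant in tissue T cells, was at 522 ± 104 and 528 ± 289 CPM and Rgs2 at 209 ± 33.6 and 214 ± 145 CPM. Rgs3 and Rgs19 lay lower in every knockout library, Rgs3 being named after its values were seen. Of all genes tested, 4.62% lay lower in this way (3.91% of genes with a mean of at least 50 CPM). For Rgs3 the genotypes nearly met, at 31.2 CPM in the lowest wild-type library and 30.6 CPM in the highest knockout library. Rgs19 was at 139 ± 15.3 and 69.9 ± 45.8 CPM and the arrestin Arrb2 at 231 ± 19.3 and 163 ± 84.1 CPM, with 37.9 CPM in knockout replicate 4.

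Other receptors that guide T cell movement had estimates of both signs, with 5 lower and 7 higher estimates of 12 tested (median log2 fold change 0.55, or -0.31 by limma voom) and 0 passing in edgeR. S1pr1, the receptor that lets T cells leave tissue towards lymph and blood, was at 125, 40.8, 94.0 and 118 CPM across the wild-type libraries and at 160, 159, 274 and 180 CPM across those of the knockout. Every knockout library was higher than every wild-type library (94.4 ± 38.0 and 193 ± 54.5 CPM, log2 fold change 1.04, SE 0.47). Of all genes tested, 1.52% lay higher in this way, and of genes with a mean of at least 50 CPM, as S1pr1 has, 3.05%. P2ry10, a lysophospholipid receptor, was at 227 ± 104 and 381 ± 84.1 CPM, the oxysterol receptor Gpr183 at 383 ± 77.1 and 363 ± 94.4 CPM and Gpr132 at 328 ± 103 and 279 ± 128 CPM.

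Transcription factors known to act on these receptor genes or on the lineages that carry them had 15 lower and 6 higher estimates of 21 tested (median log2 fold change -0.26, or 0.21 with the GC offset and 0.005 without knockout replicate 4), and 0 passed in edgeR. Bhlhe40, a factor of effector and tissue-resident T cells, was at 2011 ± 514 and 1243 ± 281 CPM (log2 fold change -0.69, or -0.21 with the GC offset). Its genotypes met at 1539.75 CPM in wild-type replicate 3 and 1538 CPM in knockout replicate 1, and they overlapped when scaled by total counts. Gata3 was at 1174 ± 301 and 1129 ± 348 CPM and Stat3 at 604 ± 154 and 494 ± 109 CPM.

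The genes most like each of the 4 abundant receptors were found by the root mean square difference of log2 CPM over the 8 libraries after centring each gene, among 2808 genes seen in all libraries at a mean of 50 CPM or more. For Cxcr6 they were Atp2b4, a plasma membrane calcium pump (0.23), Bhlhe40 (0.25) and the glycolytic enzyme Pkm (0.28), where the median gene was at 1.01 log2 units. For Cxcr3 they were Gltscr2 (0.38), Ntan1 (0.39) and Emg1 (0.40; median 1.10). For Ccr2 they were the transcription factor Ets1 (0.16), Ppp2r5c (0.18) and Rab27a (0.21; median 0.90), and for Ccr8 Ube2n (0.12), Ewsr1 (0.16) and Stt3a (0.17; median 0.78). Since both genotypes enter this measure, the genes share the receptors' genotype differences by choice and lend them no support: Pkm was at 2676 ± 328 and 1355 ± 332 CPM (log2 fold change -0.98, or -0.15 with the GC offset) and Ets1 at 3531 ± 753 and 5215 ± 1455 CPM.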

How the data were processed

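Raw counts per gene symbol were deposited by the authors for 8 libraries, not normalized. HISAT2 2.1.0, featureCounts, edgeR 3.28.1 and the genome build mm10 appear in the submitters' processing notes. The annotation, the strand setting and the treatment of shared and duplicate reads are not given in the sources used here. Library preparation was by a kit for single cells or low input, per the labels' protocols.

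Counts were analysed in R 4.3.3 with edgeR 4.0.16: filterByExpr (minimum count 10, minimum total 15), TMM scaling, and the quasi-likelihood test with robust dispersion and genotype as the only term, with Benjamini-Hochberg adjustment over 8489 genes. SE was obtained by dividing the fold change, on the log2 scale, by the root of F. CPM is the count over the TMM effective library size, and values are mean ± SD. Exon lengths, positions and GC content came from GENCODE M21 (GRCm38), which held 23376 of 24421 symbols (95.7%). Alternatives used DESeq2 1.42.0, limma 3.58.1, other filters and scalings, a GC offset (loess, span 0.75), the replicate number as a block and libraries left out. Scripts were tested on simulated data. The receptors, lists and rules were chosen with earlier results of these data known. The text names up to 4 tested genes per list by mean CPM, the 3 nearest genes of each abundant receptor, and other genes where said; some are not reported here.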

Additional observations from a re-analysis of the deposited data

Results flagged for a closer look

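A library that stood far from the other 3 of its genotype was looked for in 108 groups of 4 libraries by Dixon's test at 95%, which flags about 1 in 20 groups by chance, and 10 were found. None concerned the 8 receptors. Ccr7 reached 472 CPM and Ccrl2 196 CPM in knockout replicate 4, and Arrb2 was lowest there, at 37.9 CPM. In wild-type replicate 4 Pkm reached 3167 CPM, and this library had the fewest genes detected of its genotype, 7957. Gltscr2 reached 1195 CPM in wild-type replicate 1. Monocyte, macrophage and dendritic cell markers summed to 3163 CPM in wild-type replicate 1. In knockout replicate 3 neutrophil markers summed to 89.1 CPM, gamma-delta T cell markers to 16.4 CPM, and those of mast cells and basophils to 19.2 CPM.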

How the results depend on the processing

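No receptor was called at an adjusted p under 0.05 in any of the 19 alternatives. Across all genes 0 were called in edgeR with each filter, scaling, GC offset, left-out library and at an adjusted p under 0.1, while DESeq2 called 387 and limma voom 4, with or without quality weights. The replicate numbers do not pair the libraries (correlations of same-numbered deviations from -0.00833 to 0.0509), and the replicate block also called 0. With that block the log2 fold change was -0.996 for Cxcr6, -1.15 for Cxcr3, 0.49 for Ccr2, -0.68 for Ccr6 and -3.03 for Ccr1. Leaving out 1 library gave -1.14 to -0.80 for Cxcr6, -1.38 to -0.98 for Cxcr3, 0.23 to 0.76 for Ccr2 and 0.06 to 0.43 for Ccr8. Signs turned for Ccr1, Ccr4 and Ccr6 alone among the 8, and in limma voom Ccr6 was at -1.86; the cause was not tested. Of 35 other genes named by rule, 16 turned sign in at least 1 alternative. The order of levels per kilobase kept 28 of 28 pairs in wild type and 27 in knockout with the longest transcript, 28 in both with total counts, and 26 and 24 with coding length. List medians turned sign for the 8 receptors without knockout replicate 4 (0.06) or both replicates 4 (0.10), for other chemokine receptors with limma voom (-0.77), its weights (-0.65), the block (-0.82), and without knockout replicate 4 (-0.01) or both replicates 4 (-0.22), for other trafficking receptors with limma voom (-0.31) and the block (-0.15), for regulators with the GC offset (0.21) and without knockout replicate 4 (0.005), and for G proteins with the GC offset (0.03).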
